A study of Mus musculus with 16 samples.

Results

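The transcription factors that hold the hepatocyte in its differentiated state were followed in liver RNA of mice with and without PPARα that were fed its synthetic agonist Wy14643. The 9 genes were chosen by name, as established regulators of the hepatocyte programme: Hnf4a, Foxa1, Foxa2, Foxa3, Cebpa, Cebpb, Onecut1, Prox1 and Nr5a2. They were read by 19 of the 45037 probesets on the array, and by 9 of its 18193 genes with a probeset of their own. The mice were males of 3 to 5 months. Wild-type mice were 129S1/SvImJ and PPARα-null mice were 129S4/SvJae, so the genotype and the substrain cannot be told apart in any comparison between them. Each genotype received normal food (control) or the same food with 0.1% Wy14643 by weight for 5 days, which gave 4 groups of 4 livers, with 1 Affymetrix mouse genome array for each liver. PPARα is missing in every cell of the null animals, and whole liver was used, so that fewer cells of a type and less RNA per cell cannot be told apart in any value given here.

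Hepatocyte identity is kept by a small network of transcription factors that bind together at liver enhancers and promoters and at each other's genes. HNF4α is a nuclear receptor that sits on a large share of hepatocyte genes, the FOXA proteins are winged-helix factors that open chromatin, and C/EBPα and C/EBPβ are basic leucine zipper proteins that read the same DNA element. C/EBPα is the form of the resting, metabolically active hepatocyte, and C/EBPβ is known for the acute phase response and for liver regeneration.

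Values are log2 of the deposited probeset intensity, and differences are log2 differences between group means. Where a gene had several probesets, the brightest one stands for it. A gene was called at a limma adjusted p under 0.01 together with a fold over 1.5. Between wild-type mice on Wy14643 and on control food, 5 of the 9 genes were called: Cebpb rose, and Foxa1, Foxa3, Cebpa and Nr5a2 fell. With any 1 liver left out the count was 2 to 3, and the livers that decide each call are named with the gene. Over all 18193 genes 14.5% were called, 7.72% as higher and 6.74% as lower, and among the 5170 genes with a mean log2 value above 6 the share was 28.3%. The median of the 9 differences was -0.79, beside -0.03 over all genes. In the PPARα-null mice Wy14643 gave 0 calls among the 9, against a background of 0.0275%, or 5 genes in all, and the median difference was -0.04. At an unadjusted limma p under 0.05 the count was also 0, and the share of all genes at that threshold was not computed.

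**Figure D1:**
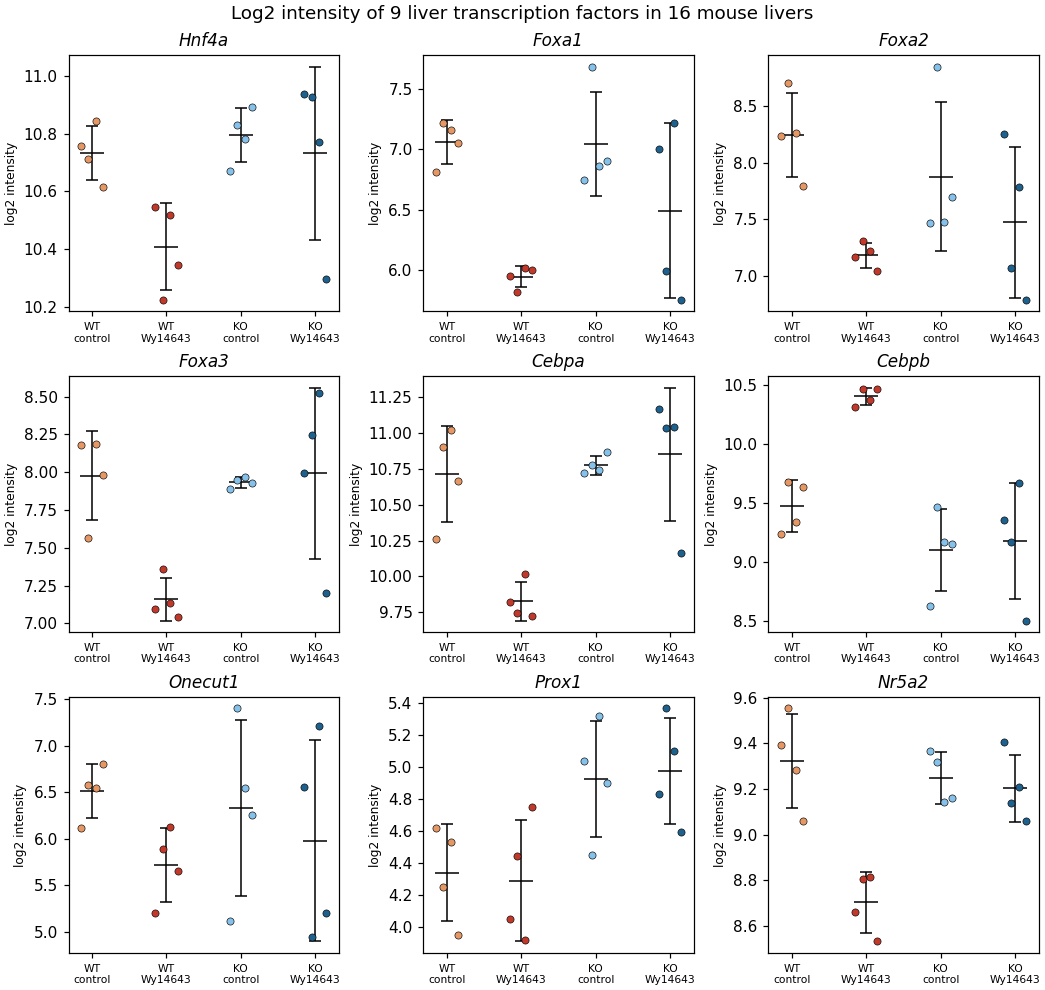
Log2 intensity (vertical axes, each gene on its own scale) of the 9 genes in each of 16 livers, by group (horizontal axes; WT, wild type; KO, PPARα-null). Points are single livers, and the black marks are group means with 1 SD. The wild-type livers on Wy14643 lie above the wild-type controls for Cebpb, and below them, without overlap, for Hnf4a, the 3 FOXA genes, Cebpa and Nr5a2.

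The quality of the arrays bears on the PPARα-null group on Wy14643. Its replicate 4 correlated with the other arrays of its group at a mean r of 0.976, against 0.984 to 0.990 for the other 15 arrays, and was the lowest of its group for 8 of the 9 genes. Most differences that rest on that group are also given without this liver. The targeted gene, Ppara, had 3 probesets, and the one of middle brightness read 8.93 to 9.16 in the wild-type and 7.44 to 7.91 in the PPARα-null livers on control food, and 9.64 to 9.83 and 8.03 to 8.71 on Wy14643. At each of the 3 the groups of the 2 genotypes did not overlap on either food, and where the probes lie with respect to the deleted stretch is not analysed here.

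The stretch before the start site is shown for the C/EBP pair, whose levels moved in opposite directions, and for the FOXA genes that were called. Each stretch is the 250 bases upstream of the start in the RefSeq table (GRCm38.p6), written along the gene, and capitals mark the motifs found.
Cebpa, chr7:35119043-35119292, forward strand: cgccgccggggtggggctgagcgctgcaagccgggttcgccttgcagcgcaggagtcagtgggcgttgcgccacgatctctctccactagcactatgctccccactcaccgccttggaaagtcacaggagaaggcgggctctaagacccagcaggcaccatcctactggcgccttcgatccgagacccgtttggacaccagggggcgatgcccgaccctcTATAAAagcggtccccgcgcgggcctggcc
Cebpb, chr2:167688665-167688914, forward strand: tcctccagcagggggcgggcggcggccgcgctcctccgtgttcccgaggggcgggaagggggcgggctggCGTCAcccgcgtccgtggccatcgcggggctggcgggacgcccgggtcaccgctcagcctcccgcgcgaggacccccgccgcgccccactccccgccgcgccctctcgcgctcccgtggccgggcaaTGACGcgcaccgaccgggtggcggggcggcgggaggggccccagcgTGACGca
Foxa1, chr12:57546112-57546361, reverse strand: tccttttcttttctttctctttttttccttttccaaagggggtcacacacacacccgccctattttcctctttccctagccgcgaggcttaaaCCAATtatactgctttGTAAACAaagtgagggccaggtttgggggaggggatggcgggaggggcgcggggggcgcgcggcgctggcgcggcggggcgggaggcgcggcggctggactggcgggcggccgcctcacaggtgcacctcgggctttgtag
Foxa3, chr7:19023540-19023789, reverse strand: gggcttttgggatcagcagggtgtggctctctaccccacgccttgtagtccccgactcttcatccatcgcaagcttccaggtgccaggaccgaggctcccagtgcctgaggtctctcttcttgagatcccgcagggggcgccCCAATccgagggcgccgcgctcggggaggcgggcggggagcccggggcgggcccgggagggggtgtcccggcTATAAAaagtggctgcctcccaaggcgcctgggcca

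Motifs were searched on both strands of the window from 250 bases before to 50 bases after each start. They were the CCAAT box, the TATA box in the form TATAAA, the core TGACG of the cyclic AMP response element, the forkhead motif TGTTTAC and the C/EBP core TTGCNNAA. The last was the direct repeat known to be bound by PPARα and HNF4α, in which AGGTCA is repeated after any 1 base. No 2 of these matches overlapped in the windows of the 9 genes. The Cebpa stretch held a TATA box 30 bases before its start, and Foxa3 held one at 36 bases and a CCAAT box at 108 bases. The Cebpb stretch held the cyclic AMP element core at 180, 53 and 7 bases before the start, the first on the opposite strand. Its TATAAA match lay at bases 22 to 27 after the start, outside the bases shown. The Foxa1 stretch held a CCAAT box at 157 bases and the forkhead motif, on the opposite strand, at 141 bases.

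Over all 14 windows of the 9 genes, the CCAAT box was in 7 and TATAAA, at any position, in 6. They were in 37.4% and 13.6% of the 32851 windows of all genes. The TATAAA matches of Foxa2 and Nr5a2 lay 208 and 181 bases before the start, and those of Cebpa, Prox1 and Foxa3 at 30, 34 and 36 bases. Those of Foxa2, Nr5a2 and Prox1 were on the opposite strand. The cyclic AMP element core was in 3 of 14 (20.8% of all windows), the forkhead motif in 1 (3.65%), the C/EBP core in 1 (10.8%) and the direct repeat in 0 (0.0396%). Several windows belong to 1 gene and are not independent. The Cebpb window was 80.7% G and C, and those of Foxa3, Cebpa and Foxa1 were 69%, 67.3% and 62.3%, above the median window of 52.7%.

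Cebpa read 10.26, 10.90, 11.02 and 10.67 in the wild-type livers on control food and 9.82, 9.74, 10.02 and 9.72 in those on Wy14643. Every treated wild-type liver was below every control. The difference was -0.89 ± 0.19 (SE; 1.85-fold lower, limma adjusted p = 0.00219). In the PPARα-null livers Cebpa read 10.72, 10.78, 10.74 and 10.87 on control food and 11.17, 11.04, 11.05 and 10.16 on Wy14643, where 3 livers lay above the controls and replicate 4 below them. The PPARα-null difference was 0.08 with a 95% interval of -0.32 to 0.48, and 0.31 without replicate 4 (limma adjusted p = 0.726).

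Against the treated PPARα-null livers, the treated wild-type livers differed in Cebpa by -1.03 ± 0.19 (limma adjusted p = 0.000552), with no overlap between the groups. Without the PPARα-null replicate 4 that difference was -1.26. The wild-type call was lost in 1 of 8 refits that left out a wild-type liver, the one without control replicate 3 (-0.78, limma adjusted p = 0.0102).

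Cebpb moved the other way. It read 9.24, 9.68, 9.34 and 9.64 in the wild-type livers on control food and 10.32, 10.47, 10.37 and 10.47 in those on Wy14643, so that the lowest treated liver was above the highest control. The difference was 0.93 ± 0.20 (1.91-fold higher, limma adjusted p = 0.00263). For Cebpb the PPARα-null livers read 8.63, 9.47, 9.17 and 9.15 on control food and 9.36, 9.17, 9.67 and 8.51 on Wy14643. These 2 groups overlapped over most of their range, and their difference was 0.07 with a 95% interval of -0.36 to 0.50, and 0.29 without replicate 4 (limma adjusted p = 0.813).

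Treated wild-type livers exceeded treated PPARα-null livers in Cebpb by 1.23 ± 0.20 (2.35-fold, limma adjusted p = 0.000196), and by 1.01 without the PPARα-null replicate 4. The second Cebpb probeset gave 0.99 for the wild-type response and 1.41 between the treated genotypes, and both were called (limma adjusted p = 0.00341 and 0.000125). The wild-type call at the brighter probeset was lost in 1 of 8 refits, the one without control replicate 1 (0.85, limma adjusted p = 0.0113).

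Within each liver the log2 value of Cebpb was taken relative to that of Cebpa. The level of this quantity has no meaning of its own, because 2 different probesets are involved, but its change between groups has. It was -1.24 ± 0.31 (SD, n = 4) in the wild-type controls and 0.58 ± 0.19 on Wy14643, a shift of 1.82, or 3.53-fold. The treated livers ran from 0.36 to 0.75 and the controls from -1.68 to -1.02, and the exact two-sided permutation p was 0.0286, the smallest that the 70 arrangements can give. In the PPARα-null mice the means were -1.68 on Wy14643 and -1.67 on control food (exact permutation p = 0.971). Cebpb and Cebpa each moved in the wild-type response, so the shift adds no evidence to their own tests.

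**Figure D2:**
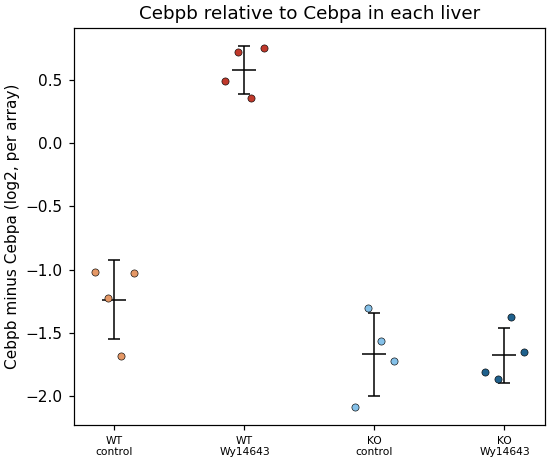
Log2 value of Cebpb minus that of Cebpa in each liver (vertical axis), by group (horizontal axis), with group means and 1 SD in black. The 4 wild-type livers on Wy14643 lie from 0.36 to 0.75, and the other 12 livers all lie below -1.

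The FOXA genes were all lower in wild-type livers on Wy14643, and 2 of the 3 were called. Foxa1 read 6.81, 7.22, 7.16 and 7.05 on control food and 5.95, 5.82, 6.02 and 6.0 on Wy14643. The treated livers lay within 0.2 of each other and clear of the controls. The difference was -1.11 ± 0.27 (2.16-fold lower, limma adjusted p = 0.00553).

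Without PPARα, Foxa1 read 6.74, 7.68, 6.86 and 6.90 on control food and 7.01, 5.99, 7.22 and 5.76 on Wy14643. The treated null livers were split, with replicate 2 in the range of the treated wild-type livers, replicate 4 just below it, and replicates 1 and 3 in the range of the null controls. The PPARα-null difference was -0.55 with a 95% interval of -1.12 to 0.01, and -0.31 without replicate 4 (limma adjusted p = 0.895). The difference between the 2 responses was -0.56 (limma adjusted p = 0.433), and -0.81 without replicate 4 (limma adjusted p = 0.159). Between the treated genotypes it was -0.55 (limma adjusted p = 0.181), and with 1 treated null liver left out it ran from -0.30 without replicate 3 (limma adjusted p = 0.470) to -0.79 without replicate 4 (limma adjusted p = 0.0326).

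Foxa2 read 8.24, 8.70, 8.26 and 7.79 in wild-type livers on control food and 7.17, 7.31, 7.22 and 7.04 on Wy14643. The groups did not overlap, but the spread of the fit was wider: the difference of -1.06 ± 0.31 had a limma adjusted p of 0.0204 and was not called. In the PPARα-null livers it read 7.47, 8.85, 7.48 and 7.70 on control food and 8.26, 7.07, 7.79 and 6.79 on Wy14643. As with Foxa1, the treated null replicates 1 and 3 were high and 2 and 4 low. The PPARα-null difference was -0.40, and -0.17 without replicate 4. The treated genotypes differed by -0.29 with a 95% interval of -0.95 to 0.36, and this value rested on single null livers: it was -0.03 without replicate 1, -0.19 without replicate 3 and -0.52 without replicate 4. Restricting the test to probesets with a mean above 6, or the fit to the arrays compared, brought the wild-type response of Foxa2 under the threshold (limma adjusted p = 0.00949 and 0.00111).

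Foxa3 read 8.18, 7.56, 8.18 and 7.98 in wild-type livers on control food and 7.10, 7.36, 7.14 and 7.04 on Wy14643. The difference was -0.82 ± 0.21 (1.76-fold lower, limma adjusted p = 0.00795). In the PPARα-null livers it read 7.89, 7.95, 7.97 and 7.93 on control food and 8.0, 8.25, 8.52 and 7.20 on Wy14643. The null controls were the tightest of the Foxa3 groups (SD 0.03), and in the treated null group replicate 4 alone lay in the range of the treated wild-type livers.

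The treated genotypes differed in Foxa3 by -0.83 ± 0.21 (limma adjusted p = 0.00674), and by -1.10 without the PPARα-null replicate 4 (limma adjusted p = 3.36e-05). The PPARα-null response of Foxa3 was 0.06, and 0.32 without that liver (limma adjusted p = 0.718). Both Foxa1 and Foxa3 stood close to the threshold. The wild-type call was lost for Foxa1 in 7 of 8 refits that left out a wild-type liver, all but the one without control replicate 1, with a limma adjusted p of up to 0.0190. For Foxa3 it was lost in 7 of 8, all but the one without control replicate 2, with a limma adjusted p of up to 0.0283. The Foxa3 call between the treated genotypes was lost in 6 of 8 refits, all but those without wild-type replicate 2 or PPARα-null replicate 4, with a limma adjusted p of up to 0.0271.

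Hnf4a read 10.76, 10.71, 10.84 and 10.62 in wild-type livers on control food and 10.55, 10.22, 10.52 and 10.34 on Wy14643. The treated livers were all below the controls, but by a small step, and the difference of -0.32 ± 0.13 was not called (1.25-fold lower, limma adjusted p = 0.0876). In the PPARα-null livers it read 10.67, 10.83, 10.78 and 10.89 on control food and 10.94, 10.93, 10.77 and 10.30 on Wy14643. The PPARα-null difference was -0.06, and 0.08 without replicate 4. The treated genotypes also differed by -0.32 (limma adjusted p = 0.0856), or by -0.47 without the PPARα-null replicate 4. That value had a limma adjusted p of 0.00249 but stayed under 1.5-fold. The 3 other Hnf4a probesets gave -0.26, 0.08 and -0.16 for the wild-type response. Between the treated genotypes they gave -0.21, 0.12 and 0.0012, so the direction was not shared, and none was called in either comparison. For the PPARα-null response these 3 gave -0.21, -0.41 and -0.29. None was called, and replicate 4 was the lowest treated liver at each. The 95% interval of the wild-type response at the brightest probeset ran from -0.59 to -0.06.

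Nr5a2 encodes a nuclear receptor that acts on genes of bile acid and cholesterol handling. It read 9.39, 9.55, 9.28 and 9.06 in wild-type livers on control food and 8.66, 8.80, 8.82 and 8.53 on Wy14643. Every treated liver was below every control. The difference was -0.62 ± 0.11 (1.54-fold lower, limma adjusted p = 0.000564). In the PPARα-null livers it read 9.37, 9.32, 9.14 and 9.16 on control food and 9.40, 9.14, 9.21 and 9.06 on Wy14643, with a difference of -0.04 and a 95% interval of -0.29 to 0.20, and 0.0036 without the treated replicate 4.

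The Nr5a2 fold was close to the threshold: without treated wild-type replicate 4 the difference was -0.56 and without control replicate 2 it was -0.54, both under 1.5-fold. Between the treated genotypes the difference was -0.50 ± 0.11 (limma adjusted p = 0.00343), likewise under 1.5-fold. The second Nr5a2 probeset gave -0.79 for the wild-type response and -0.83 between the treated genotypes, and both were called (limma adjusted p = 7.73e-05 and 4.29e-05) and kept their call without any single liver of the groups compared. The third gave -0.26 and -0.33 and was not called, and the fourth, with group means of 1.54 to 1.74, was dimmer than the median probeset of every array.

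**Figure D3:**
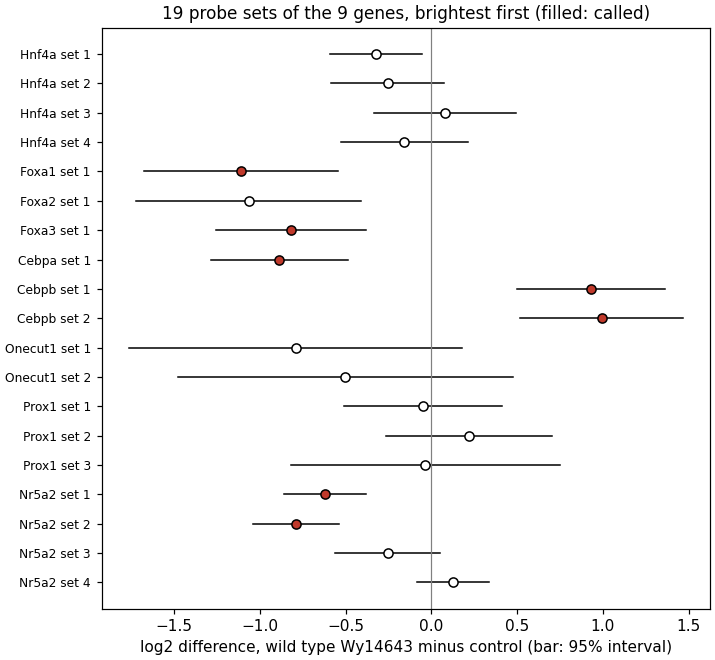
Log2 difference between wild-type livers on Wy14643 and on control food (horizontal axis) for the 19 probesets of the 9 genes (vertical axis, brightest first within a gene), with the 95% interval as a bar. Filled points were called: 2 probesets of Cebpb, 2 of Nr5a2 and the single ones of Foxa1, Foxa3 and Cebpa.

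Onecut1 encodes a homeodomain factor of hepatocyte and bile duct development. It read 6.11, 6.58, 6.55 and 6.81 in wild-type livers on control food and 5.20, 5.89, 6.13 and 5.66 on Wy14643. The groups overlapped by a single liver on each side, and the difference of -0.79 ± 0.46 was not called (limma adjusted p = 0.280). The PPARα-null livers were more widely spread: they ran from 5.12 to 7.40 on control food (SD 0.95) and from 4.95 to 7.22 on Wy14643 (SD 1.08). The 95% interval of the wild-type response ran from -1.76 to 0.18 in the fit over all 16 arrays, which takes in the spread of the null groups. In the fit to the wild-type arrays alone the SE was 0.20 and the limma adjusted p was 0.0195, which is not a call at the threshold used. Between the treated genotypes Onecut1 differed by -0.26. This was 0.15 without the PPARα-null replicate 3, -0.07 without replicate 1, -0.60 without replicate 2 and -0.52 without replicate 4. The second Onecut1 probeset was almost as bright (mean 6.10, against 6.14). It gave -0.50 for the wild-type response and, in the other direction, 0.36 between the treated genotypes. Neither was called (limma adjusted p = 0.537 and 0.675).

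Prox1, a homeobox gene needed for liver growth in the embryo, was dim, with group means of 4.29 to 4.98. It read 4.62, 4.26, 4.54 and 3.95 in wild-type livers on control food and 4.05, 4.44, 3.92 and 4.75 on Wy14643, with a difference of -0.05 and a 95% interval of -0.51 to 0.41. Wild-type livers differed from PPARα-null livers by -0.59 on control food (limma adjusted p = 0.416) and by -0.68 on Wy14643 (limma adjusted p = 0.0320), or by -0.81 there without the PPARα-null replicate 4 (limma adjusted p = 0.0164), and none was called at the threshold of 0.01. The other 2 Prox1 probesets gave 0.21 and -0.07 between the treated genotypes.

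Between wild-type and PPARα-null mice on Wy14643, 3 of the 9 genes were called: Cebpb was higher, and Cebpa and Foxa3 were lower. Over all genes 15.3% were called, 8.12% higher and 7.13% lower, and 29.4% of those with a mean above 6. The median of the 9 differences was -0.50, beside -0.04 over all genes. This comparison and the wild-type response share the treated wild-type arrays and are not independent. On control food 0 of the 9 genes were called between the genotypes, against 0.544% of all genes. Of the 9, 1 (Prox1) had an unadjusted limma p under 0.05, a threshold at which the share of all genes was not computed.

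**Figure D4:**
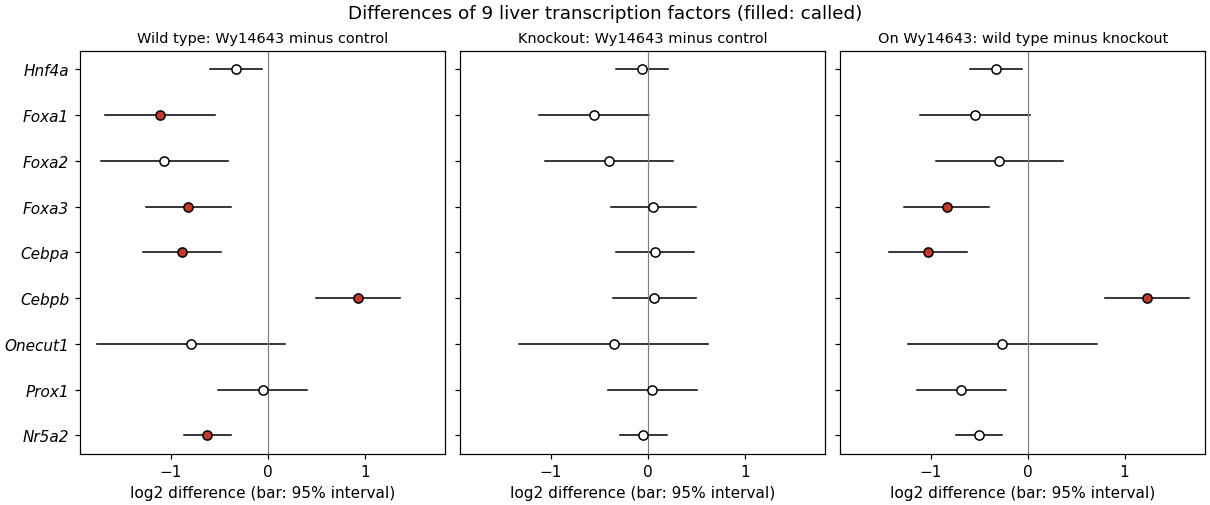
Log2 difference (horizontal axes) of the 9 genes (vertical axis) for Wy14643 against control food in wild-type mice, the same in PPARα-null mice, and wild-type against PPARα-null mice on Wy14643. Bars are 95% intervals of the limma fit and filled points were called, 5 in the first panel, 0 in the second and 3 in the third.

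Groups of 4 livers that did not overlap were counted beside the tests. The treated and control wild-type livers were separate for 7 of the 9 genes, all but Onecut1 and Prox1, with 1 higher and 6 lower on Wy14643. That was so for 29.1% of all genes. The treated wild-type and PPARα-null livers were separate for 3 of the 9 genes, against 27.7% of all genes, a share close to that of the 9.

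The test of whether the response to Wy14643 differed between wild-type and PPARα-null mice called 0 of the 9 genes, while it called 5.38% of all genes upward and 4.62% downward. At an unadjusted limma p under 0.05 there were 4, and the share of all genes at that threshold was not computed. The nearest were Cebpa with -0.96 ± 0.27 (limma adjusted p = 0.0241) and Nr5a2 with -0.58 ± 0.16 (limma adjusted p = 0.0247), followed by Foxa3 with -0.88 (limma adjusted p = 0.0626) and Cebpb with 0.86 (limma adjusted p = 0.0639). Of the 19 probesets 1 was called, the second one of Nr5a2, with -0.89 ± 0.17 (limma adjusted p = 0.00130). Without the PPARα-null replicate 4 on Wy14643, 2 of the 9 genes were called, Cebpa with -1.19 (limma adjusted p = 0.000469) and Foxa3 with -1.14 (limma adjusted p = 0.000944). Cebpa was also called without wild-type control replicate 1 (limma adjusted p = 0.00751), and Nr5a2 without wild-type control replicate 4 (limma adjusted p = 0.00828). Foxa1, Foxa2 and Cebpb were not called with all arrays or with any 1 array left out.

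Within groups, several of the genes deviated together from liver to liver. Over the 16 arrays, after taking off the group means, Pearson's r was 0.86 for Foxa1 with Onecut1, 0.85 for Foxa1 with Foxa2, 0.82 for Cebpb with both Foxa1 and Onecut1, and 0.77 for Hnf4a with Cebpa. Prox1 stood apart, with r from -0.27 to 0.44 with the other genes. These are descriptions over 16 arrays that share 1 normalization. They include replicate 4 of the treated PPARα-null group, which read 10.30 for Hnf4a and 10.16 for Cebpa, the lowest of its group for both. The correlations were not computed without this liver. The PPARα-null groups supply most of the spread for the genes other than Nr5a2 and Prox1. For Hnf4a, Foxa3 and Cebpa it was the treated null group alone, with SDs of 0.30, 0.57 and 0.47. The null controls had 0.09, 0.03 and 0.07. Replicate 4 was the lowest treated null liver for each of these genes. The Nr5a2 SD was 0.13 and 0.21 in the wild-type mice on Wy14643 and control food, and 0.15 and 0.11 in the PPARα-null mice. For Prox1 the genotypes were about equal. PPARα-null control replicate 1 was the lowest of its group for 7 of the 9 genes.

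**Figure D5:**
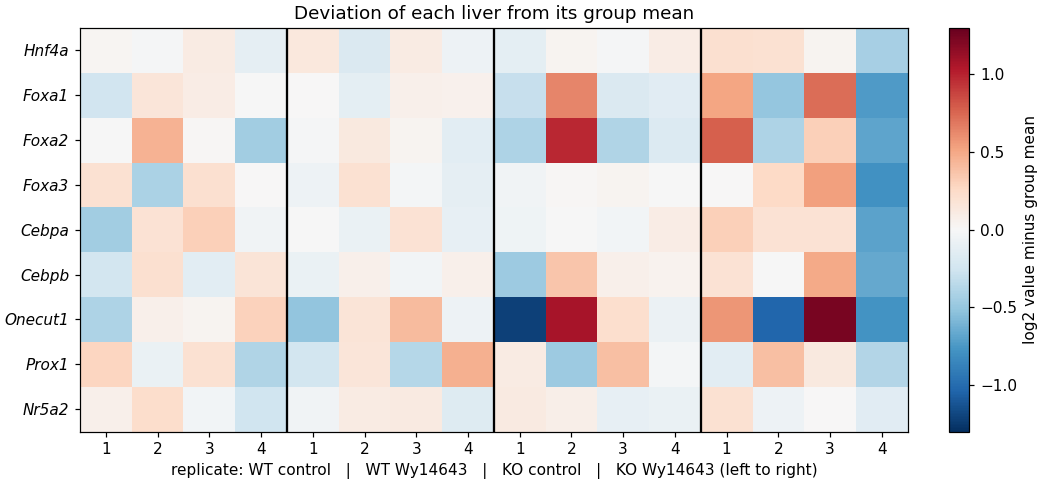
Log2 value of each liver minus its group mean (colour scale) for the 9 genes (vertical axis) in 16 livers (horizontal axis, replicates 1 to 4 of each group). Replicate 4 of the PPARα-null group on Wy14643, the last column, is the lowest of its group for 8 of the 9 genes.

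Genes of the circadian output, which follow the time of day in liver, also differed between arrays. Dbp, a PAR leucine zipper factor, read 5.22 to 10.08 in the wild-type controls and 8.75 to 9.62 on Wy14643, and 5.34 to 8.61 in the PPARα-null controls and 10.28 to 11.14 on Wy14643. The wild-type groups overlapped and the PPARα-null groups did not. Tef, of the same family, read 7.28 to 8.83 in the wild-type controls and 7.96 to 8.65 on Wy14643, and 7.20 to 8.08 in the PPARα-null controls and 8.79 to 9.54 on Wy14643. Its groups overlapped in the wild type only. Hlf, the third member, was separate in both genotypes: it read 6.70 to 7.40 in the wild-type controls and 7.54 to 7.92 on Wy14643, and 7.02 to 7.33 in the PPARα-null controls and 7.80 to 7.90 on Wy14643. Its difference was 0.62 in the wild-type mice (limma adjusted p = 0.00244, called) and 0.65 in the PPARα-null mice (limma adjusted p = 0.0890). The part of this in the values of the 9 genes was not tested.

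The genes with the pattern most like each called factor were named by the root mean square difference of centred log2 values over the 16 arrays, among 5169 other genes with a mean above 6. For Cebpa they were Dgcr2 (0.15) and Hs6st1 (0.16), for Cebpb Acot7 (0.18) and Dcakd (0.19), and for Nr5a2 Nfia (0.10) and Dcaf7 (0.10). Nfia, a nuclear factor I transcription factor, differed by -0.65 between treated and control wild-type livers, and Acot7, an acyl-CoA thioesterase, by 1.11. For Foxa3 they were Eif1b and Mob4 (both 0.21) and for Foxa1 Prdm2 and Errfi1 (both 0.28), a looser match.

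Other regulators of the hepatocyte network moved in both directions in wild-type livers on Wy14643. Of 22 measured, 4 were called higher and 3 lower, with a median of -0.31. Among the genes with a mean above 6, 12.4% were called higher and 15.9% lower in this comparison, 28.3% in all, and the share of called genes among the 22 was close to that. The xenobiotic receptor genes Nr1i2 (PXR) and Nr1i3 (CAR) rose by 1.79 and 0.88. Nr0b2, which encodes the repressor SHP and is itself a target of Nr5a2, fell by 1.37, and Zbtb20, a zinc finger repressor of Afp, fell by 0.82. The Nr0b2 call was lost in 4 of 12 alternative settings. Hhex (-1.15) and Gata4 (-0.996), factors of early liver development, were not called (limma adjusted p = 0.0341 and 0.0103). Between the treated genotypes 4 of the 22 were called higher and 3 lower. Among genes with a mean above 6, 13.5% were higher and 16% lower there.

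Target genes of the factors were taken from textbook lists of 63 entries, in which 11 of 49 genes stand in more than 1 list. Among 21 measured targets of HNF4α, 9 were called lower and 1 higher in wild-type livers on Wy14643, with a median of -0.54. Over all genes 6.74% were called lower and 7.72% higher, and over those with a mean above 6, 15.9% and 12.4%. These shares stand beside the counts of the other target lists as well. Pklr, liver pyruvate kinase, fell by 3.87, and the coagulation factor gene F7 fell by 2.78. Otc, of the urea cycle, fell by 2.35 and Cyp27a1, of bile acid synthesis, fell by 1.15. Mttp, which loads lipid onto apolipoprotein B, was the 1 that rose (1.13). Ttr (-0.10) was not called. Neither was Alb (-0.07), which stands in the FOXA and C/EBPα lists and not in this one. Hnf4a itself was not called in this comparison.

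Of 9 FOXA targets 1 was called lower (Cps1, -0.97) and 1 higher (Afp, 1.64), and of 10 C/EBPα targets 2 were called lower (Otc and Cps1), with medians of -0.35 and -0.37. Among 10 acute phase genes known as C/EBPβ targets, 7 were called lower and 1 higher while Cebpb itself was higher, with a median of -1.42. Saa1 (-4.27), Itih4 (-2.42) and Orm1 (-1.47) fell, and Lcn2 rose by 2.04. Saa1 was dim on Wy14643 (mean 3.61), and its difference ran from -4.80 to -3.10 under alternative settings. Lcn2 had a mean of 4.52 in the wild-type controls. In the PPARα-null mice its mean was 6.21 on control food and 5.60 on Wy14643. Among 9 Nr5a2 targets, 4 were called lower and 1 higher, with a median of -0.37. The bile salt pump gene Abcb11 (-1.79), Apom (-1.25) and Scarb1 (-0.79) fell, while the bile acid genes Cyp7a1 (1.0) and Cyp8b1 (0.77) were not called.

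Between the treated genotypes the counts of targets called lower and higher were 8 and 1 for HNF4α, 1 and 0 for FOXA, 2 and 0 for C/EBPα, 7 and 0 for the acute phase genes and 2 and 1 for Nr5a2. Over all genes 7.13% were called lower and 8.12% higher in that comparison, and 16% and 13.5% of those with a mean above 6. In the PPARα-null response all 5 lists gave 0 calls, against 0.0275% of all genes.

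Markers of cell types were read with the same groups, and the shares of all genes called are those given for the target lists. Of 12 hepatocyte markers 4 were called lower in wild-type livers on Wy14643, with a median of -0.27: Ahsg (-1.18), Cps1 (-0.97), Asgr2 (-0.96) and Fgb (-0.72). Among genes with a mean above 6, 15.9% were called lower and 12.4% higher, 28.3% in all. Of the hepatocyte markers 0 were called higher. Their summed intensity on the log2 scale was 16.46 to 16.53 in that group and 16.67 to 16.77 over the other 3 groups. Of 12 Kupffer cell markers 10 were called lower, among them Clec4f (-1.04) and Vsig4 (-0.94), and their summed log2 intensity was 9.53 to 9.90 on Wy14643 and 10.44 to 10.65 in the wild-type controls. Endothelial markers were lower in 3 and higher in 1 of 11, stellate cell markers lower in 4 of 10, and blood leukocyte markers higher in 1 of 9.

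Cholangiocyte markers gave 0 calls of 7, and their summed log2 intensity was 4.79 to 5.44 over all groups. Of 12 fetal and progenitor markers, 3 were called higher, Cd24a (5.90), Sox4 (2.41) and Afp, with a median of 0.00. Krt19, Epcam and Igf2 were not called. Cd24a read 2.32 in the wild-type controls, near the array medians of 2.15 to 2.24. Its difference ran from 3.90 to 5.91 under alternative settings. Sox4 and Afp stayed below a mean of 6 in both wild-type groups. The sizes of such differences depend on the background step. The part of these cell types in the values of the 9 genes was not tested.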

How the data were processed

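Liver RNA of 16 mice was hybridized singly, as the study's methods and the labels describe. The authors deposited 1 intensity per probeset and array, computed by GCRMA 2.20 (the submitters' processing notes name the version). GCRMA corrects background by probe sequence, normalizes quantiles and summarizes probes. It usually returns log2 values, but the deposited intensities had array medians of 4.42 to 4.72 and maxima of 18107 to 22364, so a linear scale was inferred and log2 was taken with no offset. Because of the quantile step a shift common to most genes is lost, dim values depend on the background step, and the number of arrays limits the precision.

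The 64 control probesets were left out of 45101, and 45037 were tested. The platform annotation gave 1 gene for 34945 probesets, several for 932 and none for 9160, and only the first were named. limma 3.58.1 in R 4.3.3 fitted 1 mean for each of 4 groups, with Benjamini-Hochberg adjustment over all probesets and the study's thresholds. Single values were compared by an exact permutation test. The script was tested on simulated data. Alternatives covered filters, normalization, offset, weights, moderation, samples, replicate block, thresholds, probeset choice and left-out livers. All 9 genes are named, with up to 4 called genes of each list of mean 6 or more in the higher group, and 2 nearest patterns. Others (Hhex, Gata4, Dbp, Tef, Hlf, Alb, Ttr, Cyp7a1, Cyp8b1, Mttp, Afp, Sox4, Krt19, Epcam, Igf2) were named after their values were seen. The 9 genes, the lists and the tests were chosen with earlier results of these data known. Some genes of the lists are not reported here.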

Additional observations from a re-analysis of the deposited data

Results flagged for a closer look

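Within groups of 4 livers, 36 combinations of gene and group were examined for a single liver far from the rest, and chance alone marks about 1 in 20. In the PPARα-null controls, replicate 2 read 7.68 for Foxa1 with the next liver at 6.90, and 8.85 for Foxa2 with the next at 7.70. In the PPARα-null group on Wy14643, replicate 4 read 10.16 for Cebpa with the next at 11.04. At the second-brightest Nr5a2 probeset the wild-type response to Wy14643 differed from that without PPARα, by -0.89 on the log2 scale (limma adjusted p = 0.00130).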

How the results depend on the processing

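The count of called genes among the 9 in the wild-type response was 5, with 3 at an offset of 16 before log2, 4 to 6 under the other settings and 2 to 3 when 1 liver was left out. Between the treated genotypes it was 3, with 5 at an adjusted p under 0.05 and no fold threshold, 2 or 3 under the other settings and 2 to 3 when 1 liver was left out. For the difference of responses it was 0, with 1 for probesets of mean log2 above 6, 1 with array weights, 2 at an adjusted p under 0.05 and no fold threshold, and 0 to 2 when 1 liver was left out. The other 2 comparisons gave 0 throughout.

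Signs turned only for values that were not called. With the mean over a gene's probesets, the difference of responses was 0.079 for Hnf4a and 0.38 for Prox1, the Prox1 wild-type response was 0.044 and the Onecut1 difference between the treated genotypes was 0.048. When 1 liver was left out, these last 2 ran from -0.20 to 0.074 and from -0.60 to 0.15. Cebpb relative to Cebpa in the PPARα-null mice was 5.93e-05 after quantile normalization and -0.15 to 0.11 when 1 liver was left out. In the wild-type mice this shift ran from 1.67 to 1.89 when 1 liver was left out, and the Cebpa and Cebpb calls between the treated genotypes were kept in every setting and refit.

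With the replicate number as a replicate block the counts were 5 in the wild-type response, 3 between the treated genotypes and 0 in the other 3 comparisons, and of the named genes Nr0b2 lost its call (limma adjusted p = 0.0118). Deviations of the 24 same-numbered pairs correlated at -0.12 to 0.19, 6 of 16 arrays correlated best with their own number, and the samples share only a number. The cause of these changes was not tested.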
